A study of Mus musculus with 25 samples.

Results

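The genes described here are those for peroxisome proliferator-activated receptors alpha and delta (Ppara and Ppard) and 7 of their target genes in the heart, Pdk4, Ucp3, Angptl4, Acot1, Acot2, Ehhadh and Cpt1a. They were chosen by name, and the transcript values of each were summed, which gave 9 genes (40 transcripts) of 35969 summed from the table. All 9 passed the minimum level and were among the 11983 genes tested. In GRCm38 the receptors lie at chr15:85734983-85802819 (Ppara) and chr17:28232700-28301474 (Ppard), and the targets at chr6:5483351-5496309 (Pdk4), chr7:100472990-100486432 (Ucp3), chr17:33773750-33781830 (Angptl4), chr12:84009490-84018371 (Acot1), chr12:83987861-83993873 (Acot2), chr16:21761287-21787807 (Ehhadh) and chr19:3322334-3385733 (Cpt1a).

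mRNA from tissue labeled as left ventricle was sequenced from 25 male mice, 5 in each of 5 groups, on a C57BL6/J background. WT CNTL and GPx4+/- CNTL mice ate a control diet with 6% of energy as fat, and WT HFHS and GPx4+/- HFHS mice ate a high fat high sucrose (HFHS) diet with 35.5% of energy as lard-based fat, 38% as sucrose and 1.5% as cholesterol. GPx4+/- mice were littermates of the WT mice with a disrupted copy of Gpx4, the gene for glutathione peroxidase 4, and no label ties that disruption to a cell type. Diets began at an age of 8 to 10 weeks and lasted 16 weeks, and WT HFHS + Carnosine mice also drank 80 mM carnosine, a histidine dipeptide, from week 7. Carnosine-treated GPx4+/- mice are not analysed here. All mice were fasted before euthanasia and then injected with dextrose or with saline. The labels do not say which mouse received which, so no comparison by injection was possible.

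PPAR alpha is a nuclear receptor that fatty acids bind and activate. It pairs with a retinoid X receptor on DNA elements that repeat the letters AGGTCA with a gap of 1 base, and raises transcription of genes for the uptake, import and oxidation of fatty acids. PPAR delta reads similar elements and shares many targets in cardiac muscle. Pdk4, Angptl4 and Ucp3 are widely used as readouts of this pathway, and their mRNA is known to be high in the fasted heart.

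The sequences below are the 250 bases before the transcription start of Ucp3, Cpt1a and Ehhadh, shown because these are the 3 genes with a diet effect past the test over both genotypes. They come from RefSeq (GRCm38.p6), which gave a promoter for 8 of the 9 genes and none for Angptl4. Capitals mark the motif AGGTCA, searched on both strands (TGACCT where it lies on the other strand).
Ucp3 (chr7:100472741-100472990, plus strand): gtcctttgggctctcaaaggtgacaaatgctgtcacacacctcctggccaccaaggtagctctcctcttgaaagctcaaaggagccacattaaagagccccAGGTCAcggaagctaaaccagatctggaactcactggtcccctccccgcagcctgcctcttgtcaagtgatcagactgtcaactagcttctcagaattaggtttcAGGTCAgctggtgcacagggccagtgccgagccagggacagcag
Cpt1a (chr19:3323051-3323300, plus strand): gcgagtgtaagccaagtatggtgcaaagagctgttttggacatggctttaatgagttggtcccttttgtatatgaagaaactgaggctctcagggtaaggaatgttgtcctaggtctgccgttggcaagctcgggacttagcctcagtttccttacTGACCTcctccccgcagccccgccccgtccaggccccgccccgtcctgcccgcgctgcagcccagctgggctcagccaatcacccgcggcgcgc
Ehhadh (chr16:21787835-21788084, minus strand): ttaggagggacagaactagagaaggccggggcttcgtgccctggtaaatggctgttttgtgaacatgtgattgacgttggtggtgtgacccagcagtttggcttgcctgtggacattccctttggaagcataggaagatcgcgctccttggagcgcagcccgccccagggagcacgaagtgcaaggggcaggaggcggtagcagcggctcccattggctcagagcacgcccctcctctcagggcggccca
Ucp3 held 2 copies of the motif, Cpt1a held 1, and no copy lay in the windows of Ehhadh or of the 5 other genes searched. At least 1 copy occurred in 14.0% and at least 2 in 1.36% of 32851 mouse promoters of the same length. The repeat AGGTCANAGGTCA was matched in Ucp3 with 2 mismatches among the 12 fixed letters, which overlaps the copy of AGGTCA nearest the start, and 3.24% of the promoters came as close. The best match in Acot2 had 3 mismatches, and 21.3% of the promoters had at most as many. The RefSeq starts of Cpt1a and Ppara lie after the GENCODE gene starts given above, so these windows fall wholly inside the GENCODE genes. The windows of Ppard, Pdk4 and Acot1 fall partly inside them, and that of Ucp3 by its last base. A match of letters describes the sequence and does not show a bound site.

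Levels below are in scaled TPM, TPM summed over the transcripts of a gene (read share corrected for transcript length), divided by a factor per mouse that aligns the libraries. Differences are in log2(scaled TPM + 0.5), which makes changes at low levels look smaller than they are, and were tested with limma, with p-values adjusted over the 11983 genes by the Benjamini-Hochberg method. A gene is called where the adjusted p is under 0.05. TPM keeps no read depth, so counting error could not be estimated apart from the spread between mice. In a bulk sample, fewer cells of a type and less RNA per cell cannot be told apart.

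Libraries stood apart in a few ways. Gpx4 checked the genotype labels, with 590.0 to 777 scaled TPM in the 15 WT libraries and 250.3 to 382 in the 10 GPx4+/- libraries, which checks neither diet nor carnosine. Mitochondrial transcripts took between 31.5% and 49.0% of a library's TPM, and the scaling factors lay between 0.865 and 1.16. Alb, the liver gene for albumin, reached 736 scaled TPM in GPx4+/- CNTL replicate 2 and 40.8 and 23.0 in GPx4+/- HFHS replicates 1 and 3, against at most 5.25 in the other 22 libraries. The 5 atrial cardiomyocyte markers summed to 4561 scaled TPM in WT CNTL replicate 3, 7339 in GPx4+/- CNTL replicate 1 and 2692 in GPx4+/- HFHS replicate 4, far above the group medians of 48.3 to 257 and against the ventricular label of these 3 samples. Each count for the 9 genes was also taken without each set of 3 mice. Adipoq, the defining adipocyte gene, was at most 3.17 scaled TPM and Ucp1, the marker of brown fat, at most 0.0320, and 6 of the 8 adipocyte genes were too low to be tested. Of the other 2, Cidea rose on HFHS over both genotypes (0.29, adjusted p = 0.00295 from limma) and Cfd differed by -0.42 (adjusted p = 0.706 from limma). The 5 smooth muscle markers summed to a median of 107 scaled TPM in WT CNTL and 189.8 in WT HFHS, with differences of 0.85 to 1.12 in WT and 0 calls (unadjusted p from 0.0105 to 0.0391, limma). The summed ventricular cardiomyocyte markers had medians of 46765 in WT CNTL and 45412 in GPx4+/- CNTL against 40055 on HFHS in WT, 41830 on HFHS in GPx4+/- mice and 40876 with carnosine. In the list, Myh6 (log2 difference -0.17, adjusted p = 0.0314 from limma) fell on HFHS over both genotypes, and of the fibroblast markers Lum (0.55, adjusted p = 0.0395 from limma) and Pdgfra (0.29, adjusted p = 0.0472 from limma) rose. The part of these shifts in the results that follow was not tested.

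The receptors themselves were expressed at moderate levels. Ppara averaged 19.5 scaled TPM over the 25 mice, with means of 20.8 ± 2.36 (SD, n = 5) for WT CNTL and 18.4 ± 1.50 for GPx4+/- CNTL, then 18.6 ± 1.68 on HFHS for WT and 19.1 ± 3.81 for GPx4+/- mice, and 20.5 ± 3.03 with carnosine. Its range over all mice was 14.1 to 24.0, and the groups overlapped in every comparison. Ppard averaged 13.9 scaled TPM and varied least of the 9 genes, by 1.43-fold from the lowest to the highest mouse. In WT CNTL its 5 values lay between 12.6 and 13.1, and in WT HFHS + Carnosine they were 15.6, 15.1, 13.3, 15.1 and 14.4. All 5 carnosine values were higher than all 5 control values (exact permutation p = 0.00794, two-sided, the smallest that 5 mice against 5 allow), but the log2 difference of 0.19 (95% interval 0.08 to 0.31) had an adjusted p of 0.153 from limma. Between HFHS and CNTL over both genotypes, Ppard differed by 0.15 (adjusted p = 0.0858 from limma) and Ppara by -0.07 (adjusted p = 0.665 from limma).

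Of the targets, Pdk4 was the most abundant per length, at a mean of 334 scaled TPM. It codes for pyruvate dehydrogenase kinase 4, which shuts off pyruvate entry into the citric acid cycle. Acot2 followed at 62.9, Ucp3 at 46.7, Acot1 at 38.7, Cpt1a at 21.5, Ehhadh at 8.02 and Angptl4 at 7.14. The spread between mice of the same group differed greatly between targets. On the log2 scale its SD within groups was 0.73 for Pdk4, 0.71 for Angptl4, 0.48 for Ucp3, 0.35 for Acot1 and for Ehhadh, 0.22 for Acot2 and 0.18 for Cpt1a. Pdk4 differed by 7.01-fold and Angptl4 by 7.42-fold between the lowest and the highest mouse.

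**Figure D1:**
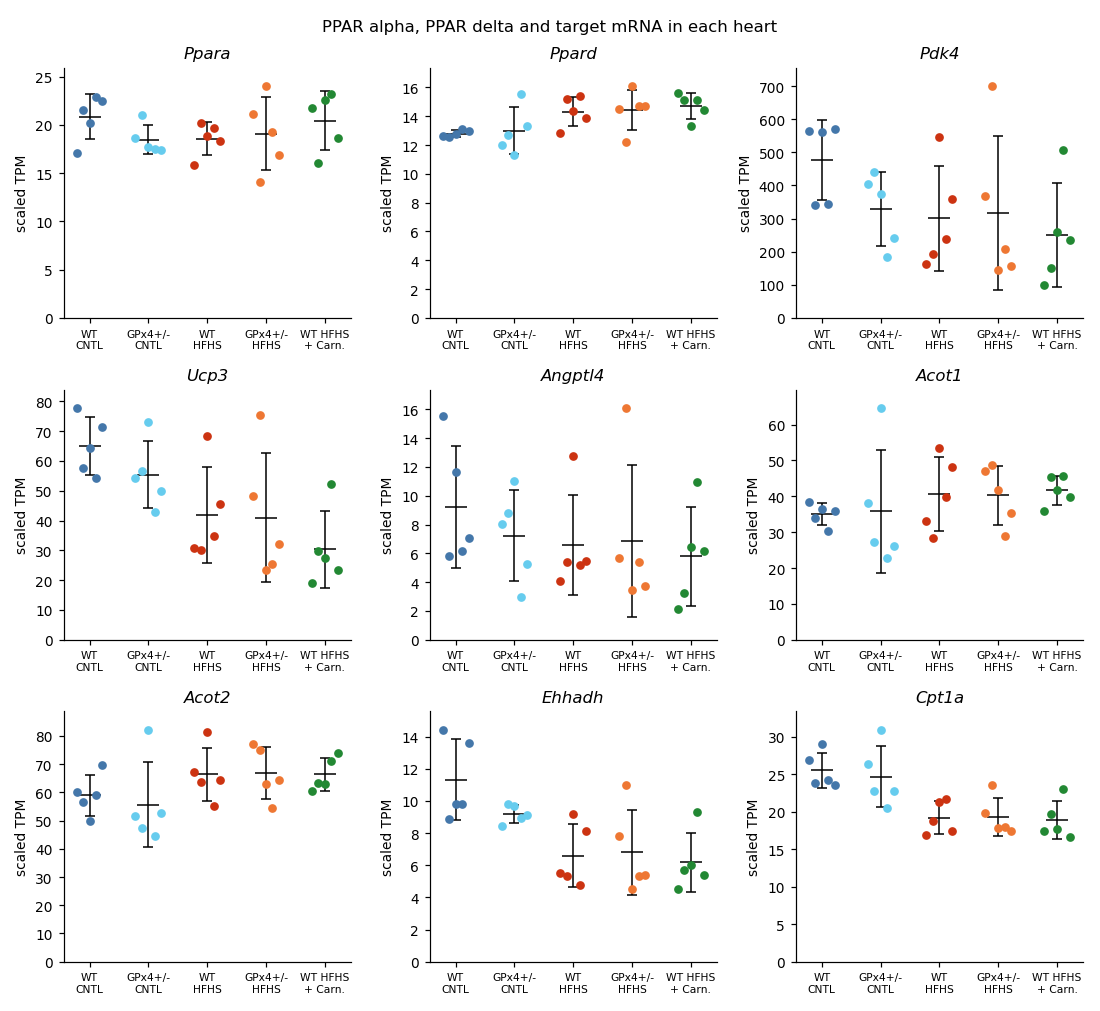
Scaled TPM (linear axis from 0) of each of the 9 genes in each of 25 hearts, by group, with points for mice in replicate order and black bars for the group mean and SD (n = 5). Ehhadh and Cpt1a sit lower in the 3 HFHS groups, while a few HFHS mice reach or pass the control level of Pdk4, Ucp3 and Angptl4.

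On HFHS diet, 3 of the 7 targets were lower than on CNTL when the genotypes were averaged, and no target was higher. Cpt1a fell by 0.37 (standard error 0.074, adjusted p = 0.00447), Ehhadh by 0.61 (standard error 0.14, adjusted p = 0.0115) and Ucp3 by 0.62 (standard error 0.19, adjusted p = 0.0476), all on the log2 scale and from limma. Over all genes, 8.33% were called in this comparison and 3.65% were called lower, against 3 of the 9 genes here. At an unadjusted p under 0.05, 5 of the 9 passed, against 24.5% of all genes. The median difference of the 7 targets was -0.37 and that of all genes tested was -0.00. Pdk4 (-0.51, adjusted p = 0.272 from limma) and Angptl4 (-0.32, adjusted p = 0.518 from limma) had negative differences that did not pass. The differences of Acot1 (0.21, adjusted p = 0.440 from limma) and Acot2 (0.23, adjusted p = 0.168 from limma) were positive and did not pass either.

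Cpt1a codes for the liver-type carnitine palmitoyltransferase, which controls entry of long-chain fatty acids into mitochondria and is expressed in the heart beside the muscle form Cpt1b. Its values were 26.9, 23.9, 29.0, 24.3 and 23.5 scaled TPM in WT CNTL and 16.8, 18.8, 21.3, 21.7 and 17.5 in WT HFHS. Every WT HFHS heart was below every WT CNTL heart (exact permutation p = 0.00794, two-sided, the smallest possible), and the mean was 75.3% of control. In GPx4+/- CNTL they were 26.4, 22.8, 30.9, 20.5 and 22.7, and in GPx4+/- HFHS 19.8, 23.5, 17.8, 17.9 and 17.4. Here GPx4+/- HFHS replicate 2, at 23.5, overlapped the controls, and the mean was 78.3% of control (exact permutation p = 0.0317, two-sided). The log2 difference was -0.40 (95% interval -0.62 to -0.18, adjusted p = 0.0670 from limma) in WT and -0.34 (-0.56 to -0.12, adjusted p = 0.0818 from limma) in GPx4+/- mice. Cpt1a was called lower over both genotypes with each of the 20 mice left out in turn.

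Ehhadh, the bifunctional enzyme of peroxisomal beta-oxidation, was 14.4, 8.89, 9.83, 9.78 and 13.6 scaled TPM in WT CNTL. In WT HFHS it was 5.55, 5.33, 9.19, 4.76 and 8.12, so that 4 of 5 hearts were below every control and the mean was 58.3% of control (exact permutation p = 0.0159, two-sided). The GPx4+/- CNTL hearts were tightly grouped at 8.46, 9.84, 9.66, 8.95 and 9.13. In GPx4+/- HFHS the values were 7.80, 11.0, 4.51, 5.32 and 5.42, with replicate 2 above all its controls and the other 4 below them. The log2 difference was -0.75 (95% interval -1.17 to -0.33, adjusted p = 0.0742 from limma) in WT and -0.48 (-0.90 to -0.05, adjusted p = 0.207 from limma) in GPx4+/- mice. Over both genotypes Ehhadh too was called lower with each of the 20 mice left out in turn.

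Ucp3 codes for uncoupling protein 3 of the inner mitochondrial membrane of muscle. Its values in WT CNTL were 77.7, 57.6, 64.3, 54.3 and 71.2 scaled TPM. In WT HFHS they were 30.6, 30.0, 68.3, 34.7 and 45.6, where 4 of 5 hearts were below all controls and replicate 3 was within the control range. GPx4+/- CNTL hearts had 54.2, 56.5, 73.1, 42.8 and 50.0, and GPx4+/- HFHS hearts 48.2, 75.6, 23.6, 25.4 and 32.1. Replicate 2 of the latter group was again the highest and exceeded all of its controls. The mean was 64.3% of control in WT (exact permutation p = 0.0317, two-sided) and 74.1% in GPx4+/- mice (exact permutation p = 0.143, two-sided). The call for Ucp3 over both genotypes was close to the threshold and held in 4 of the 20 fits with 1 mouse left out. Without the 3 mice with raised Alb the difference was -0.57 (adjusted p = 0.117 from limma), and without the 3 with raised atrial markers -0.55 (adjusted p = 0.125 from limma). The coding transcript Ucp3-201 carried 90.1% of the signal and a retained-intron transcript carried 9.27%. Ucp3 overlaps the antisense gene Gm10603, whose reads a stranded library separates only if strand was used in counting, which is not given in the sources used here.

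Pdk4 and Angptl4 had lower means on HFHS, but the spread was as large as the difference. Pdk4 was 565, 341, 561, 344 and 572 scaled TPM in WT CNTL and 161, 194, 547, 239 and 359 in WT HFHS, with 3 of 5 HFHS hearts below every control. The log2 difference in WT was -0.77 (95% interval -1.59 to 0.05, adjusted p = 0.338 from limma). GPx4+/- CNTL hearts had 405, 439, 375, 183 and 241, and GPx4+/- HFHS hearts 367, 699.9, 145, 209 and 157, the highest value of all 25 mice being in this group. That difference was -0.25 (95% interval -1.07 to 0.57).

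Angptl4 codes for a secreted inhibitor of lipoprotein lipase. It was 15.6, 5.79, 11.6, 6.17 and 7.07 scaled TPM in WT CNTL, and 4.10, 5.43, 12.7, 5.20 and 5.45 in WT HFHS. The GPx4+/- CNTL values were 8.07, 8.83, 11.1, 2.99 and 5.24 and the GPx4+/- HFHS values 5.67, 16.1, 3.43, 5.38 and 3.72. Apart from the single high heart in each HFHS group, the HFHS hearts lay between 3.43 and 5.67. Most of the Angptl4 signal, 81.0%, was assigned to Angptl4-202, which GENCODE annotates as a target of nonsense-mediated decay, and 15.8% to the coding transcript Angptl4-201. The gene sum may therefore not follow the coding message.

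Acot1 and Acot2 are neighboring genes on chromosome 12 that code for a cytosolic and a mitochondrial acyl-CoA thioesterase, which release free fatty acids from coenzyme A. Both had higher means on HFHS, with no call. Acot1 averaged 35.1 ± 3.06 (SD, n = 5) scaled TPM on CNTL and 40.6 ± 10.3 on HFHS in WT, 35.8 ± 17.1 and 40.4 ± 8.23 in GPx4+/- mice, and 41.7 ± 4.05 with carnosine. For Acot2 these means were 59.1 ± 7.25 and 66.4 ± 9.48, 55.7 ± 15.2 and 66.8 ± 9.30, and 66.4 ± 5.84. GPx4+/- CNTL replicate 3 had the highest value of all mice for both genes, 64.6 for Acot1 and 82.1 for Acot2. The transcripts of Acot1 and Acot2 share 645 stretches of 31 bases, 16.7% of those in Acot1 and 29.9% of those in Acot2, so the split of reads between them is uncertain. Their sum was 94.1 ± 7.88 in WT CNTL, 107 ± 17.4 in WT HFHS and 107 ± 17.2 in GPx4+/- HFHS. A non-coding transcript, Acot1-204, carried 55.3% of the Acot1 signal.

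**Figure D2:**
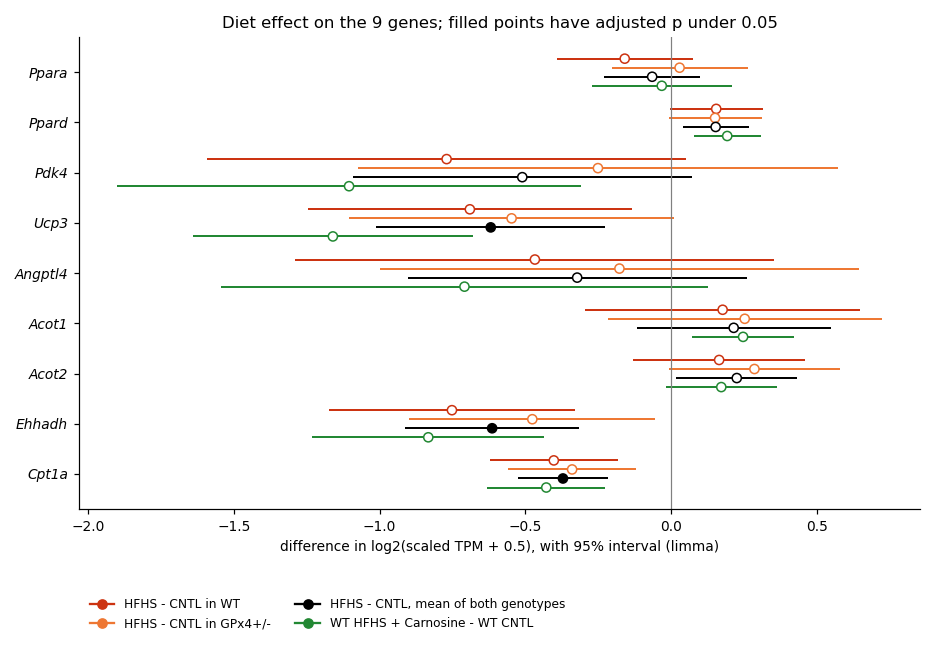
Difference in log2(scaled TPM + 0.5) for the 9 genes in 4 comparisons, with 95% intervals from limma, and filled points where the adjusted p is under 0.05. The filled points are those of Ucp3, Ehhadh and Cpt1a for the mean of both genotypes, and the WT CNTL mice are shared by 3 of the comparisons.

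Within a single genotype none of the 9 genes was called, where 1.19% of all genes were called in WT and 3.34% in GPx4+/- mice. At an unadjusted p under 0.05, 3 of the 9 passed in WT against 16.5% of all genes, and 2 of the 9 in GPx4+/- mice against 18.4%. Groups did not overlap for 1 of the 9 genes in WT, Cpt1a, against 4.51% of all genes, and for 0 in GPx4+/- mice against 4.47%. The diet effect did not differ between genotypes for any of the 9 genes (0 called by limma, adjusted p at least 0.80, and 0 with an unadjusted p under 0.05 against 7.14% of all genes). For Pdk4 the difference of the diet effects was 0.52 with a 95% interval from -0.64 to 1.68, and for Ehhadh 0.28 with an interval from -0.32 to 0.87, so effects of a considerable size would not have been detected.

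Between genotypes on the same diet, limma called none of the 9 genes on CNTL or on HFHS (0 with an unadjusted p under 0.05 on each, against 6.29% and 4.56% of all genes), where 0.0501% of all genes were called on either diet. The groups overlapped for all 9 genes on CNTL, against 0.926% of all genes whose groups did not, and on HFHS, against 0.726%. On CNTL, 8 of the 9 differences were negative, and the median of all genes tested was 0.00045. The targets vary together between mice, as described below, so these signs are not independent. GPx4+/- CNTL replicate 4 was the lowest of its group for Pdk4, Ucp3, Angptl4, Acot1, Acot2 and Cpt1a. Pdk4 was lowest relative to WT, with a mean of 329 ± 111 (SD, n = 5) against 477 ± 122 and a log2 difference of -0.57 (95% interval -1.39 to 0.25, adjusted p = 0.848 from limma). On HFHS the group means of the 9 genes in GPx4+/- and WT mice lay close together, for example 41.0 ± 21.6 and 41.8 ± 16.1 for Ucp3 and 19.3 ± 2.54 and 19.2 ± 2.17 for Cpt1a.

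With carnosine, the means of Pdk4, Ucp3, Angptl4, Ehhadh and Cpt1a were all below those of both WT CNTL and WT HFHS, but no difference passed the test. Against WT HFHS, limma called 0 of the 9 genes (adjusted p at least 0.947, and 0 with an unadjusted p under 0.05 against 4.21% of all genes), and 0% of all genes were called. Ucp3 differed by -0.47 (95% interval -1.07 to 0.13) and Pdk4 by -0.33 (-1.27 to 0.60). Against WT CNTL, a comparison that shares its control mice with the WT diet comparison, 0 of the 9 genes were called at an adjusted p under 0.05, and 0.234% of all genes were. At an unadjusted p under 0.05, 6 of the 9 passed, against 13.1% of all genes.

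Ucp3 was 19.0, 29.7, 27.6, 52.2 and 23.4 scaled TPM in WT HFHS + Carnosine, so that all 5 hearts were below all 5 WT CNTL hearts and the mean was 46.7% of control (exact permutation p = 0.00794, two-sided). The log2 difference was -1.16 (95% interval -1.64 to -0.68, adjusted p = 0.0593 from limma). Cpt1a had 17.4, 19.6, 17.7, 23.1 and 16.6, also below every control, and differed by -0.43 (adjusted p = 0.0772 from limma). Ehhadh had 4.53, 5.68, 6.02, 9.34 and 5.36 and differed by -0.83 (adjusted p = 0.0806 from limma). Pdk4 had 99.8, 149, 259, 507 and 235, with 4 of 5 hearts below every control, and differed by -1.11 (95% interval -1.90 to -0.31, adjusted p = 0.222 from limma). Angptl4 had 2.17, 3.23, 6.44, 10.9 and 6.20. Groups did not overlap for 3 of the 9 genes, Ucp3, Cpt1a and Ppard, against 3.26% of all genes. Replicate 4 of this group was the highest for Pdk4, Ucp3, Angptl4, Ehhadh, Cpt1a and Acot1, and with it left out limma called Ucp3 (-1.38, adjusted p = 0.00521), Ehhadh (-0.98, adjusted p = 0.0206) and Cpt1a (-0.50, adjusted p = 0.0213). Leaving out this mouse removes the highest values of these genes, and with any of the other 9 mice left out 0 of the 9 genes were called. The same 3 genes were called when all 25 mice were fitted together, where calls over all genes rose from 28 to 141.

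The target genes were high or low together in individual mice. In WT HFHS, replicate 3 had the highest Pdk4, Ucp3, Angptl4, Ehhadh, Acot1 and Acot2, in GPx4+/- HFHS replicate 2 had the highest Pdk4, Ucp3, Angptl4, Ehhadh, Acot1 and Cpt1a, and in WT HFHS + Carnosine replicate 4 was such a mouse. To describe this apart from the groups, group means were removed and the 36 pairs of the 9 genes were correlated over the 25 mice, with p-values from a permutation test within groups (100000 resamples, smallest possible p 1e-05) adjusted over the 36 pairs. For Spearman's rho, values were ranked within each group instead. All values of a mouse come from the same library and scaling factor. For Pdk4 and Ucp3, Pearson's r was 0.90 and Spearman's rho 0.80 (adjusted permutation p = 0.00012 and 0.000576), and r was 0.86 without the 2 mice farthest from the middle. For Pdk4 and Angptl4, r was 0.91 and rho 0.86 (adjusted permutation p = 0.00012 and 0.00036), and 0.87 without the 2 mice. For Ucp3 and Ehhadh, r was 0.92 and rho 0.82 (adjusted permutation p = 0.00012 and 0.00054), and 0.86 without the 2 mice. Each of these 3 relations was positive in all 5 groups.

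**Figure D3:**
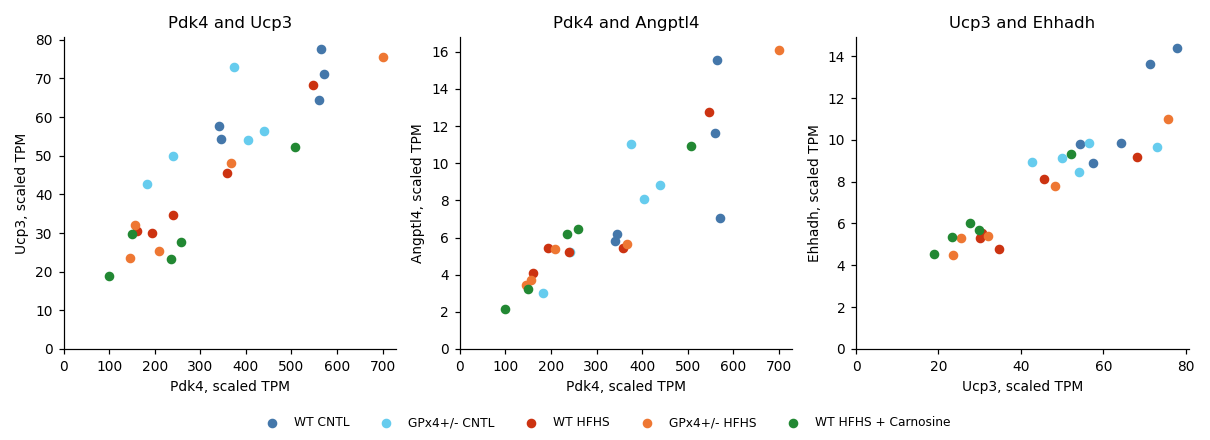
Scaled TPM of Ucp3 against Pdk4, Angptl4 against Pdk4 and Ehhadh against Ucp3 in each of 25 mice, colored by group, on linear axes. HFHS mice with high Pdk4, up to 699.9, also lie high for the other gene of the pair.

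Over the 21 pairs of targets r ranged from 0.43 to 0.92 with a median of 0.67, 20 had an adjusted permutation p under 0.05, and 18 were positive in all 5 groups. Acot1 and Acot2 correlated at r = 0.74 (rho 0.50, adjusted permutation p = 0.0054 and 0.0553), and their shared sequence can itself tie the values. The weakest relations were those of Cpt1a with Acot2 (r = 0.43, rho 0.04, adjusted permutation p = 0.101 and 0.895) and with Ehhadh (r = 0.47, rho 0.32, adjusted permutation p = 0.0377 and 0.231). Without the 2 farthest mice they were 0.15 and 0.20, so these relations rested on those mice.

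The receptors did not share this pattern. Ppara correlated with the 7 targets at r between -0.27 and -0.08, and 0 of the 7 pairs had an adjusted permutation p under 0.05. Ppard correlated negatively with all 7, at r between -0.60 and -0.39, and 3 of the 7 pairs passed, those with Angptl4, Pdk4 and Ucp3. By rho 0 of these 3 passed (the lowest adjusted permutation p was 0.0553, for Angptl4), and without the 2 farthest mice the 7 values lay between -0.42 and -0.12.

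**Figure D4:**
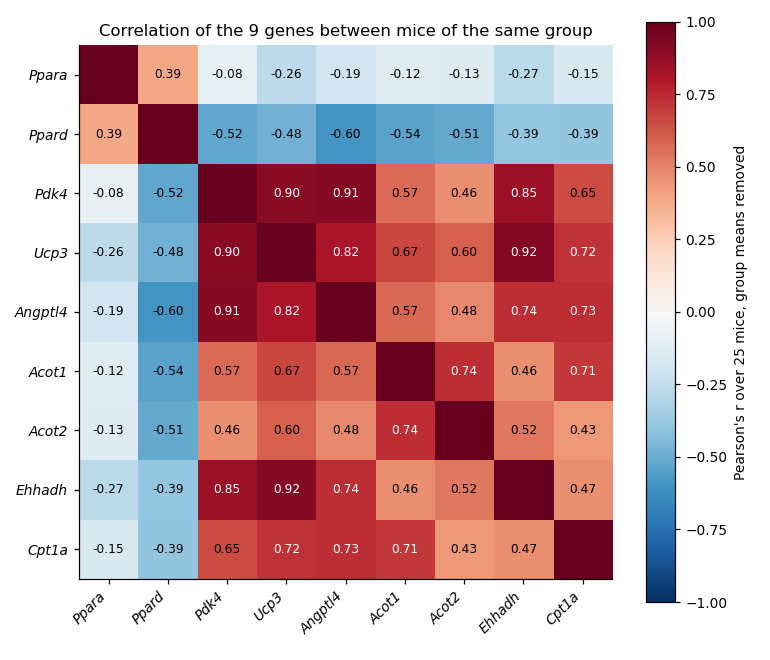
Pearson's r over 25 mice for each pair of the 9 genes after removal of group means, with the value printed in each cell and color from -1 (blue) to 1 (red). The 7 targets form a block of positive values from 0.43 to 0.92, and the 2 receptors lie outside it.

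To find genes with a like pattern, each tested gene was correlated over the 25 mice with the mean standardized level of the 7 targets, which is given as a description. The 5 most alike were Mlycd (r = 0.86), which codes for malonyl-CoA decarboxylase, Slc25a22 (0.84), a mitochondrial glutamate carrier, Slc22a5 (0.83), the carnitine transporter, Lipe (0.83), hormone-sensitive lipase, and Gpam (0.83), which begins glycerolipid synthesis. The 3 most opposed were Unc5b (-0.73), a netrin receptor, Wscd1 (-0.71) and Podxl (-0.70), which codes for podocalyxin. Mlycd ranged from 55.6 to 99.9 scaled TPM over the mice. With group means removed, Cat (0.83), Plin5 (0.76) and Txnip (0.75) were the most alike of the listed genes outside the targets after Mlycd (0.85). Txnip, a gene induced by glucose, was 384 scaled TPM in WT HFHS replicate 3 (279 to 314 in the other 4 mice), 433 in GPx4+/- HFHS replicate 2 (225 to 354) and 448 in WT HFHS + Carnosine replicate 4 (206 to 332). On the control diet Txnip reached like levels, at 330 to 424 in WT CNTL and 205 to 432 in GPx4+/- CNTL. It was picked after its values were seen as the highest of the 14 fasting, insulin and glucocorticoid responsive genes, whose r with the target mean ran from -0.33 (Trim63) to 0.75 with a median of 0.26.

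Most genes of mitochondrial fatty acid oxidation rose on HFHS. Of 18 genes of mitochondrial fatty acid oxidation, 14 rose and 0 fell over both genotypes, where 4.68% of all genes were called higher, and the median difference was 0.23. The genes with the smallest p were Acads (0.36, adjusted p = 0.000229 from limma) and Decr1 (0.45, adjusted p = 0.000358 from limma), an acyl-CoA dehydrogenase and a dienoyl-CoA reductase, and Cpt2 (0.35, adjusted p = 0.000302 from limma), the inner-membrane partner of the carnitine palmitoyltransferases. Cpt1b, the muscle form beside Cpt1a, rose by 0.13 (adjusted p = 0.0207 from limma), from 353 ± 15.3 (SD, n = 5) in WT CNTL to 379 ± 12.5 in WT HFHS, where Cpt1a averaged 25.5 and 19.2. The list had 3 higher calls in WT alone, where 0.659% of all genes were called higher, and 8 in GPx4+/- mice alone, against 2.18%. Without a filter on low values the count in WT was 0, and on TPM as deposited the counts were 8 over both genotypes, 1 in WT and 1 in GPx4+/- mice. Decr1 (0.52, adjusted p = 0.0202 from limma) and Ech1 (0.52, adjusted p = 0.0259 from limma) were also higher in WT HFHS + Carnosine than in WT CNTL, where 0.184% of all genes were called higher. These 2 calls of the 18 became 0 without a filter or with a replicate block, and 8 after quantile normalization.

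Of 8 tested peroxisomal and microsomal genes 2 rose over both genotypes, against 4.68% of all genes called higher and 3.65% called lower. They were Pex11a (0.44, adjusted p = 0.00123 from limma), which takes part in peroxisome division, and Cat (0.27, adjusted p = 0.00278 from limma), the gene for catalase. Of 10 genes of fatty acid uptake, activation and storage, Fabp3 rose (0.34, adjusted p = 4.89e-05 from limma) and Lpl, which codes for the lipase that Angptl4 inhibits, fell by 0.20 (adjusted p = 0.0150 from limma).

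Of the related receptor gene Pparg and the retinoid X receptors Rxra, Rxrb and Rxrg, 0 of the 4 were called over both genotypes. Rxrg was called higher within GPx4+/- mice (0.30, adjusted p = 0.0468 from limma), where 2.18% of all genes were. That call was lost without a filter, with a replicate block, on TPM as deposited (adjusted p = 0.187 from limma) and after quantile normalization (adjusted p = 0.0615 from limma). Of 13 coregulators 0 were called, where 8.33% of all genes were, so a count of 0 among so few genes is near the background, and Ppargc1a differed by -0.21 (adjusted p = 0.213 from limma). Pdk1, a relative of Pdk4, rose by 0.15 over both genotypes (adjusted p = 0.0297 from limma). Of 14 genes that respond to fasting, insulin or glucocorticoid, Trim63 (0.26, adjusted p = 0.0291 from limma), Sgk1 (0.21, adjusted p = 0.0388 from limma) and Ddit4 (0.54, adjusted p = 0.0471 from limma) rose, against 4.68% of all genes called higher, and Per1 fell by 0.31 (adjusted p = 0.0139 from limma). The 3 higher calls became 0 without a filter and on TPM as deposited and 1 after quantile normalization, while Per1 was called under each of these. Txnip in this list differed by -0.22 (adjusted p = 0.310 from limma). All 27 genes called over both genotypes, the 3 targets included, had the same sign on TPM as deposited and after quantile normalization, but 17 were still called on TPM as deposited and 25 after quantile normalization. Cpt1b (adjusted p = 0.345 from limma) and Pdk1 (adjusted p = 0.304 from limma) were among those lost on TPM as deposited, whereas the 3 targets stayed called under both. On TPM as deposited the median of all genes moved by -0.10 in the GPx4+/- diet comparison.

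**Figure D5:**
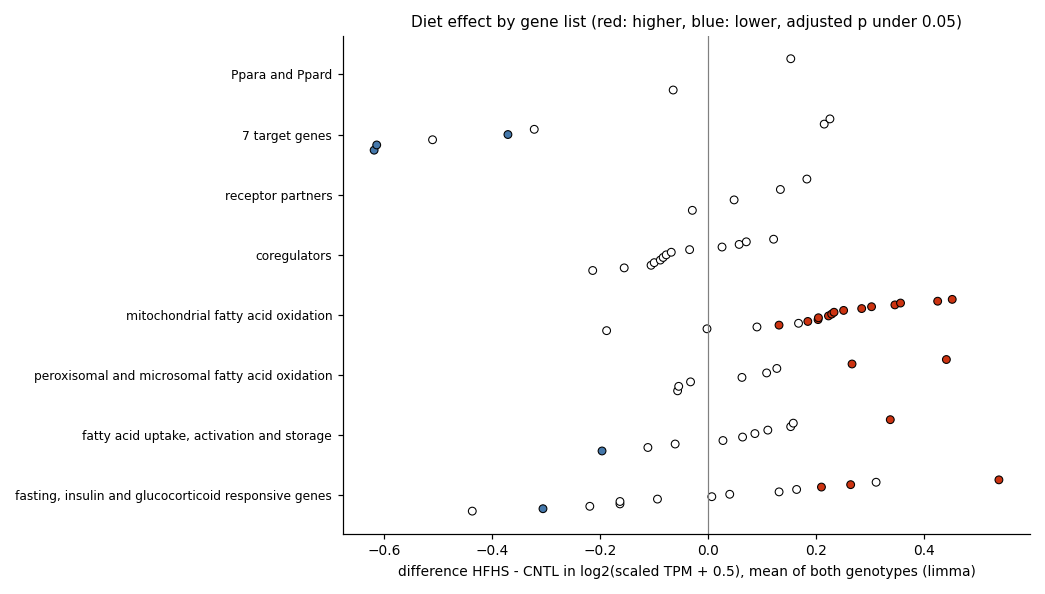
Difference between HFHS and CNTL in log2(scaled TPM + 0.5), mean of both genotypes, for each tested gene of 8 lists, red where called higher and blue where called lower (adjusted p under 0.05). Of the 7 targets 3 are blue, while 14 of 18 mitochondrial fatty acid oxidation genes are red. The list labeled receptor partners holds the retinoid X receptors and also Pparg, which is not a partner.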

How the data were processed

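Poly(A) RNA of heart, extracted from left ventricle per the labels, was sequenced with a stranded kit. The authors deposited TPM per transcript and library for 119215 transcripts. The submitters' processing notes name kallisto 0.43.1, sleuth 0.30.0 and GRCm38, whereas the study's methods describe STAR alignment and DESeq2 on gene counts, which were not used here. Groups and replicate numbers come from the labels, and diets, weeks and dose from the methods. Columns were matched to mice by library name, because the column positions in the descriptions point to another library for all 25. By position Gpx4 would overlap between genotypes (250.3 to 777 in WT and 324 to 733 in GPx4+/-), and by name it does not.

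TPM were summed per gene with GENCODE M21 (116772 transcripts matched) and scaled by median ratios over 11879 genes. Genes with a mean of at least 1 scaled TPM were fitted with limma 3.58.1 (R 4.3.3) on log2 values with a pseudocount of 0.5, the 20 mice without carnosine as 4 groups and each carnosine comparison on 10 mice. Limma replaced the study's count test because TPM are not counts, and was tested on simulated data. Single genes were also compared by exact permutation. Replicates are different mice, and p-values measure the spread between them.

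The members and lists were chosen with earlier results of these data known. Named genes are the 9 members, at most 3 called genes per list, direction and comparison with the smallest p, and the 5 most alike and 3 most opposed genes over 25 mice. Cpt1b, Ppargc1a, Txnip, Plin5 and the marker genes were named after their values were seen. Each result was recomputed on TPM as deposited, after quantile normalization, with a pseudocount of 0.1, without the filter, with a minimum of 5, with array weights, with all 25 mice fitted together, with a replicate block, on protein-coding transcripts only and without each mouse. The fits without mice with raised Alb or atrial markers, and the correlations under other scalings, were chosen after seeing the data. A gene of the lists is not reported here.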

Additional observations from a re-analysis of the deposited data

Results flagged for a closer look

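In a group of 5 mice, a value is listed here where its gap to the next mouse makes up more than 0.71 of the range of the group. Of 45 groups of the 9 genes, 3 held such a mouse, and chance gives about 1 in 20 groups, or 2.25. Angptl4 in WT HFHS replicate 3 was 12.7 scaled TPM against 5.45 in the next mouse, a gap of 0.844 of the range. Angptl4 in GPx4+/- HFHS replicate 2 was 16.1 against 5.67, a gap of 0.823. Acot2 in GPx4+/- CNTL replicate 3 was 82.1 against 52.9, a gap of 0.776. The same 2 HFHS mice were the highest of their groups for Pdk4, Ucp3, Ehhadh and Acot1, and GPx4+/- CNTL replicate 3 was the highest of its group for Ucp3, Angptl4, Acot1 and Cpt1a.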

How the results depend on the processing

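Of the 3 genes called over both genotypes, Cpt1a and Ehhadh stayed called under all alternatives run. Ucp3 kept its direction but not its call without a filter on low values (-0.62, adjusted p = 0.113), with all 25 mice in a single fit (-0.62, adjusted p = 0.0529), without the mice with raised Alb (-0.57) and without those with raised atrial markers (-0.55), all from limma. Ppard over both genotypes was called on protein-coding transcripts only (0.18, adjusted p = 0.0110 from limma). The number of called genes moved from 0 to 1 in WT with array weights (Cpt1a), from 0 to 1 in GPx4+/- mice on TPM as deposited (Cpt1a), and for WT HFHS + Carnosine against WT CNTL from 0 to 1 on TPM as deposited (Ucp3), 3 with array weights and 3 with all 25 mice (Ucp3, Ehhadh and Cpt1a), and 2 on protein-coding transcripts only (Ucp3 and Cpt1a). Calls over all genes moved too, from 142 to 405 in WT with array weights and from 400 to 424 in GPx4+/- mice on TPM as deposited. For WT HFHS + Carnosine against WT CNTL they went from 28 to 29 on TPM as deposited and 124 with array weights. With all 25 mice they were 141, and on protein-coding transcripts only 53. The cause was not tested. With 1 mouse left out, the count was 2 to 4 over both genotypes, 0 to 1 in GPx4+/- mice and 0 to 3 for WT HFHS + Carnosine against WT CNTL, and 0 in the other 5 comparisons. The 1 in GPx4+/- mice came without replicate 2 of GPx4+/- HFHS (Cpt1a, adjusted p = 0.0371 from limma), and the 3 came without replicate 4 of the carnosine group.

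The diet difference of Ppara in GPx4+/- mice (0.03) was -0.0757 on TPM as deposited and -0.10 without the mice with raised Alb, and that of Angptl4 (-0.18) was 0.16 without the mice with raised Alb. With 1 mouse left out, Ppara ranged from -0.0575 to 0.13 there and from -0.10 to 0.0502 for WT HFHS + Carnosine against WT CNTL. Of 31 differences of the 9 genes in the genotype, diet by genotype and carnosine against WT HFHS comparisons, 23 had the other sign in at least 1 alternative, none larger than 0.29, and 0 were called in any. The 3 strongest pair correlations stayed between 0.89 and 0.92 under a pseudocount of 0.1, TPM as deposited and quantile normalization.

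Mice with the same replicate number did not vary together (r of their deviations -0.34 to 0.23 over 50 pairs, and 4 of 25 mice correlated best with their own number), so the numbers do not pair them. With a replicate block, Ucp3 over both genotypes had an adjusted p of 0.0641 from limma, 2 genes were called there and 0 in the other 7 comparisons, and calls over all genes went from 142 to 68 in WT and from 28 to 0 for WT HFHS + Carnosine against WT CNTL.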
